A study of Mus musculus with 8 samples.

Results

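Cadherins and protocadherins were taken from the deposited gene table as the protein-coding genes whose symbol is Cdh followed by a number or starts with Pcdh, leaving out the endothelial cadherin Cdh5. The rule found 82 of the 21649 genes listed. They comprised 21 cadherins, 12 protocadherins outside the gene clusters, and 49 clustered protocadherins (7 of the alpha, 21 of the beta and 21 of the gamma cluster). RNA had been sequenced from cells sorted by fluorescence and labelled as non-vascular smooth muscle cells, with 2 libraries from lung, 3 from intestine and 3 from bladder of mice, to compare such cells between organs. All 3 groups had the genotype Cspg4-Dre/Acta2-CreERT/R26-GFP and had received tamoxifen (0.75 mg per 10 g, into the peritoneum, for 3 days), so no group is an untreated or reporter-free control. Dre and Cre are recombinases. Cspg4 is active in pericytes and vascular smooth muscle, Acta2 in smooth muscle of all kinds and in myofibroblasts, and R26-GFP is a fluorescent reporter at the Rosa26 locus. The sources used here do not give how the recombinases selected the sorted cells, the age of the mice, or whether each library came from another mouse. The p-values therefore reflect the scatter of these 8 libraries alone, which may be technical.

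Cadherins are calcium-dependent adhesion proteins of the cell surface. Classical cadherins (types I and II) bind the same or related cadherins on the next cell and are tied to actin inside the cell through beta-catenin, alpha-catenin and p120-catenin, which in muscle and epithelium carries tension from cell to cell. Protocadherins have cadherin repeats but other cytoplasmic tails, are best known from the nervous system, and in the clustered families give cells a surface identity through combinations of isoforms. In smooth muscle, adherens junctions join neighbouring cells and anchor actin at the membrane.

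The libraries held 12.67 and 13.62 M reconstructed reads in lung, 12.02 to 13.19 M in intestine and 9.72 to 10.95 M in bladder. Every value below is a normalized read count unless a scale is named, and 3 reads, the number a count of 0 allows, came to 2.47 to 3.81 on that scale. Genes of the labelled cell type were read in every tissue, the 10 visceral smooth muscle genes summing to 36905 to 39980 in lung, 35660 to 38678 in intestine and 21598 to 26137 in bladder. Genes of other cell types were read too, as the plot of summed marker lists shows. The 12 fibroblast genes summed to 43293 to 48457 in lung, 56857 to 61101 in intestine and 81184 to 91893 in bladder, with 0 of the 12 at 0 in any tissue. In each tissue 0 of 11 vascular smooth muscle and pericyte genes and 0 of 14 endothelial genes were at 0 in all libraries. Sums of these lists stand beside members that were highest or lowest in the same tissue, although the order of the other tissues can differ.

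**Figure D1:**
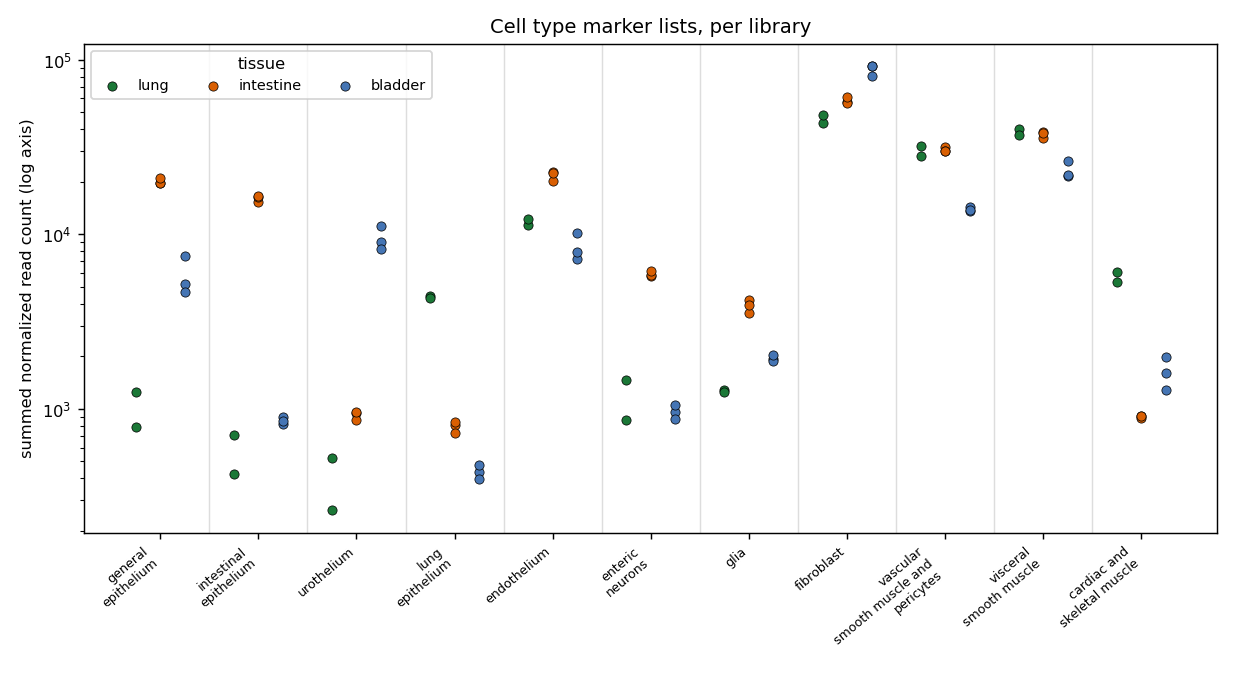
Summed normalized read count (log axis) of 11 cell type marker lists, 1 point per library, with lung left, intestine in the middle and bladder right within each list. General and intestinal epithelium genes summed highest in the 3 intestine libraries, urothelial genes in the 3 bladder libraries, and cardiac and skeletal muscle genes in the 2 lung libraries.

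Of the 82 members, 73 reached 10 in 2 or more libraries and were tested. In limma's F test among the 3 tissues 36 of these 73 passed at a Benjamini-Hochberg adjusted p under 0.05 (49.3%), against 62.9% of the 18097 genes tested. The families differed in this count. Outside the clusters 27 of 30 tested members passed, or 90.0%, and among the clustered protocadherins 9 of 43 did, or 20.9%. For intestine minus bladder 13 of the 73 were higher and 20 lower, against 28.7% higher and 23.3% lower of all genes tested. For lung minus bladder 10 were higher and 14 lower, where 19.2% of all genes were higher and 21.8% lower. For lung minus intestine 12 were higher and 13 lower, beside 15.9% higher and 23.6% lower of all genes. Either way, 51.9% of all genes passed for intestine minus bladder, 41% for lung minus bladder and 39.5% for lung minus intestine. Members outside the clusters passed in 70.0% of cases for intestine minus bladder and in 73.3% for each of the other 2 pairs. Clustered members passed in 27.9% for intestine minus bladder, 4.65% for lung minus bladder and 6.98% for lung minus intestine. The median absolute log2 difference outside the clusters was 1.69 for intestine minus bladder, 2.11 for lung minus bladder and 1.93 for lung minus intestine, and within the clusters it was 0.48, 0.43 and 0.46 in the same pairs. These counts and medians describe the families, and the difference between families was not tested.

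**Figure D2:**
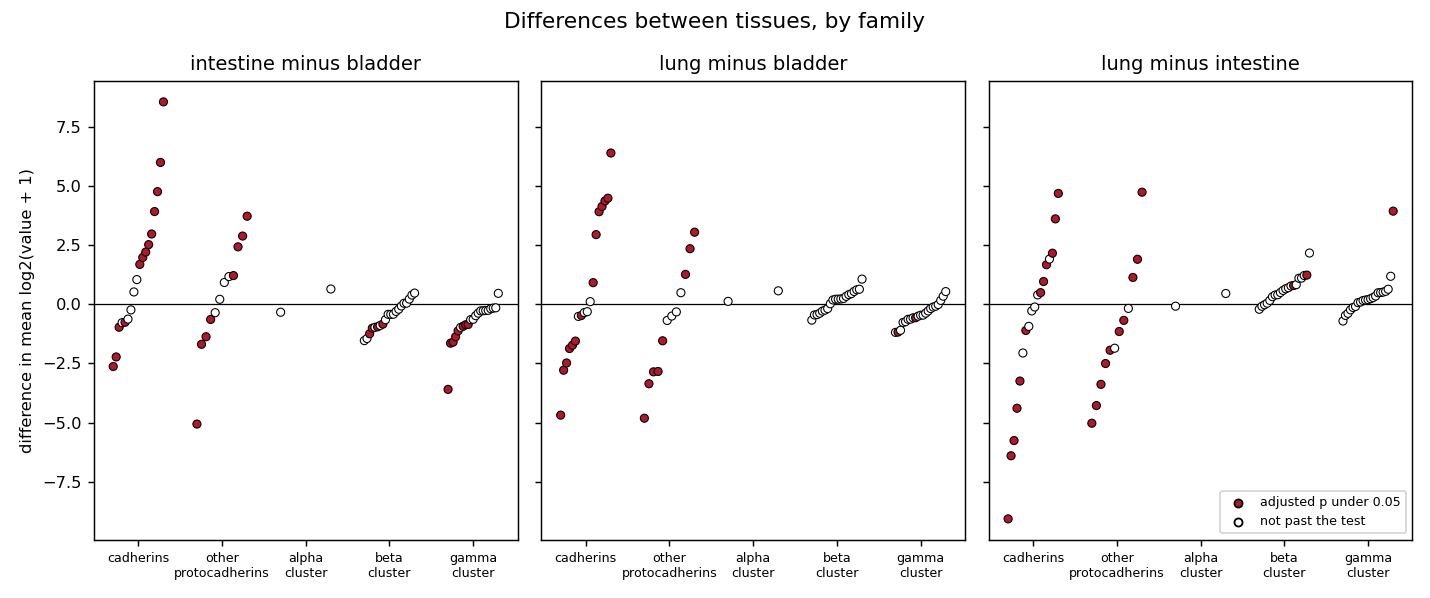
Difference in mean log2(value + 1) between tissues for each of the 73 tested members, 1 point per gene, sorted by size within its family; filled points passed limma's test at an adjusted p under 0.05. Cadherins and unclustered protocadherins ranged widely on both sides of 0, whereas most clustered genes lay close to 0, with Pcdhgc5 apart at -3.60 between intestine and bladder and at 3.94 between lung and intestine.

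A member counted as highest in a tissue when it passed against both other tissues, with the larger p adjusted over all genes. By that rule Cdh4, Cdh13, Pcdh7 and Cdh15 were highest in lung, 4 members where 3.06% of all genes passed. Cdh1, Cdh17, Cdh19, Pcdh20, Cdh10, Cdh26 and Pcdh12 were highest in intestine, 7 members beside 12.5% of all genes. Cdh15 met the filter for testing only through its lung libraries, and Cdh17, Cdh19 and Pcdh20 only through their intestine libraries. For these genes being tested and being highest in that tissue are not independent. Pcdh18, Pcdh9, Pcdhgc3 and Cdh11 were highest in bladder, 4 members beside 10.3% of all genes. The bladder count was 1 without lung library 2 and 2 without bladder library 1 or 2. Summed over all 82 members the tissues overlapped, at 18372 to 23728 in lung, 17258 to 18921 in intestine and 18699 to 19686 in bladder. The composition differed instead: the 5 type I cadherins summed to 2917 to 4353 in lung, 2981 to 3405 in intestine and 622 to 867 in bladder. The 9 delta protocadherins summed to 4054 to 5616 in lung, 4069 to 4474 in intestine and 6798 to 7597 in bladder. Single genes made up much of these type I and delta sums, which therefore do not describe each family as a whole. Cdh4 alone was at 2360 to 3549 in lung and Cdh1 alone at 2450 to 2732 in intestine. Pcdh18 alone was at 4371 to 5107 in bladder, against 593 to 713 in lung and 1226 to 1602 in intestine. The 11 type II cadherins overlapped, with sums of 3430 to 3807 in lung, 3115 to 3466 in intestine and 3249 to 3618 in bladder.

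**Figure D3:**
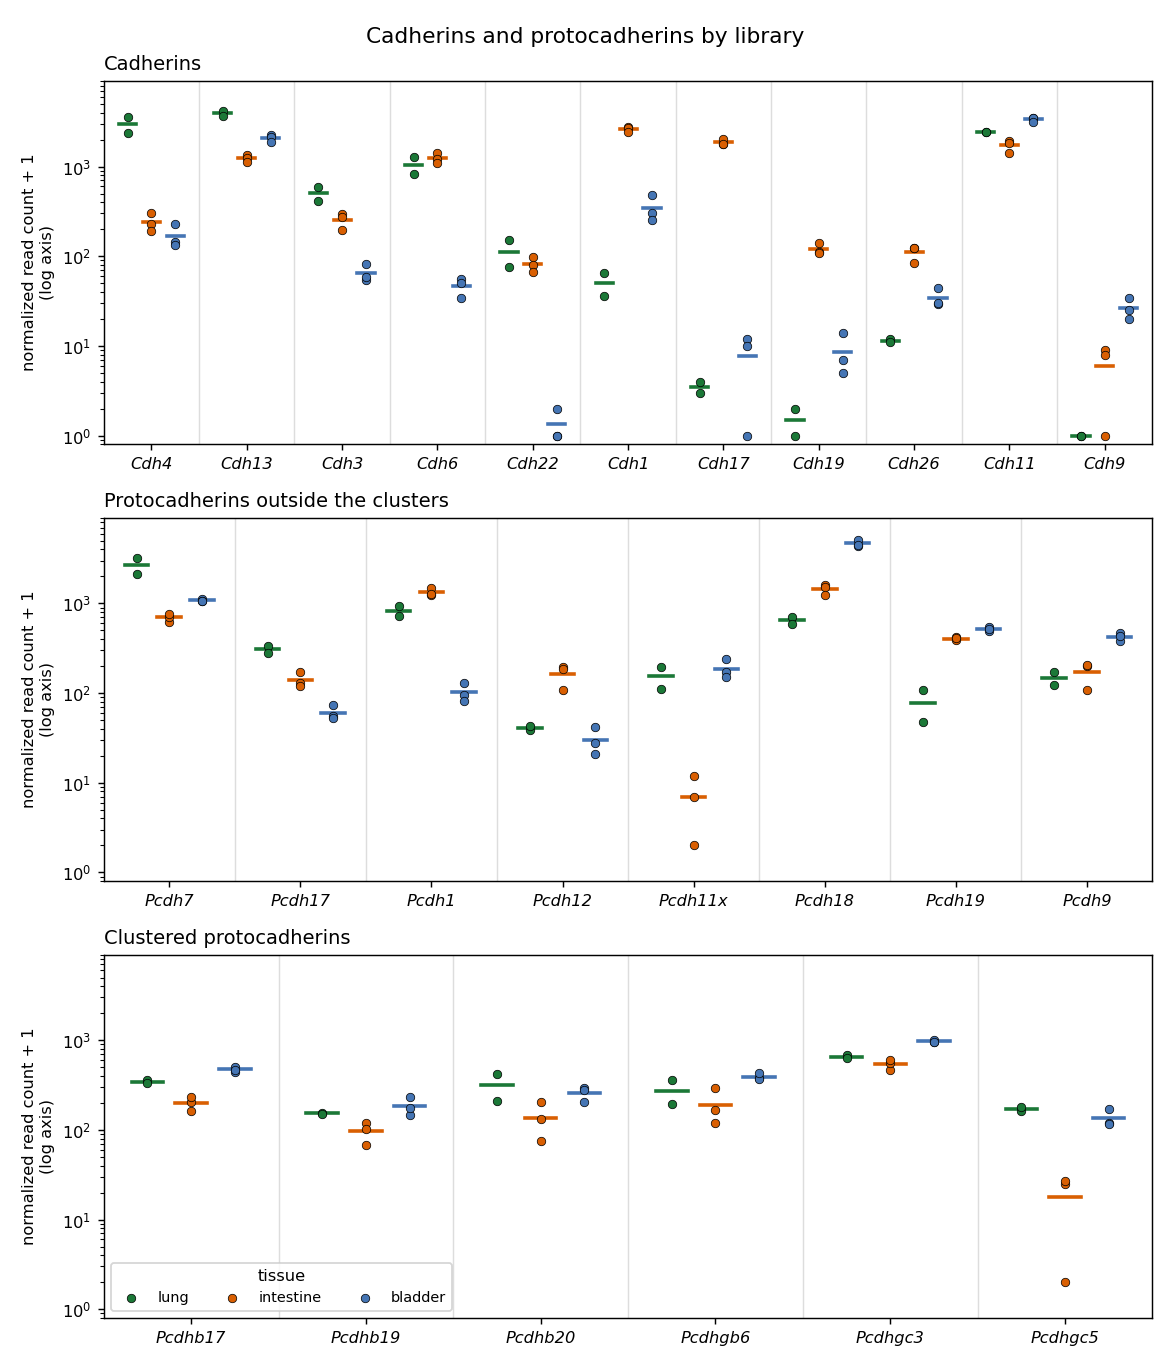
Normalized read count plus 1 (log axis) of the 25 members described library by library, 1 point per library and a bar at the tissue mean, with lung left, intestine in the middle and bladder right for each gene. The libraries of a tissue lie close together for Cdh4, Cdh1 and Pcdh18, while 1 intestine library of Pcdhgc5 and of Cdh9 and 1 bladder library of Cdh17 lie at or near 0.

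Type I cadherins form the classical adherens junctions. Cdh4, R-cadherin, first described in retina (chromosome 2, 179084224 to 179541166, build mm39), was at 3549 and 2360 in lung, 301, 228 and 190 in intestine, and 143, 227 and 134 in bladder. Both lung libraries stood far above all others, whereas intestine and bladder overlapped. The log2 difference was 4.14 (SE 0.28) for lung minus bladder and 3.61 (SE 0.28) for lung minus intestine, with limma adjusted p of 6.39e-06 and 1.1e-05. For intestine minus bladder it was 0.53 (SE 0.25, limma adjusted p = 0.112). That pair passed without bladder library 2 (0.76, limma adjusted p = 0.0302) and with the deposited scaling undone (0.92, limma adjusted p = 0.0152). In bulk RNA, a different number of cells of a type and a different amount of RNA per cell cannot be told apart, for Cdh4 and for every member below.

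Cdh3, P-cadherin, a junction protein of basal epithelial layers (chromosome 8, 107237523 to 107283929), was at 595 and 408 in lung, 297, 273 and 197 in intestine, and 81, 53 and 58 in bladder. The 3 tissues did not overlap. Cdh3 was higher than in bladder by 2.95 (SE 0.28) in lung and by 1.98 (SE 0.25) in intestine on the log2 scale, with limma adjusted p of 3.82e-05 and 1.31e-04. Lung exceeded intestine by 0.97 (SE 0.28, limma adjusted p = 0.0212), a call lost without lung library 1 (0.69, limma adjusted p = 0.122) or intestine library 3 (0.79, limma adjusted p = 0.0743). Cdh15, M-cadherin of skeletal muscle and its satellite cells, was read at 28 and 22 in lung, at 0 in all 3 intestine libraries, and at 4, 0 and 0 in bladder. Its level in lung was at least 9.10-fold higher than in intestine, against a floor of 3 reads per intestine library, and the depth-adjusted ratio of reads for lung over bladder was 20.7 (95% counting interval 6.76 to 103). For Cdh4 and Cdh15, the 10 cardiac and skeletal muscle genes moved alongside, with sums of 5340 to 6055 in lung, 885 to 913 in intestine and 1287 to 1974 in bladder. Of the 9 such genes tested, 6 were higher and 0 lower in lung than in intestine, and 7 were higher and 1 lower in lung than in bladder. The 1 lower was Acta1, the actin of skeletal muscle (log2 difference -1.395, limma adjusted p = 0.00224). Ckm, a creatine kinase of muscle, passed in neither pair (limma adjusted p = 0.494 against bladder and 0.406 against intestine). What part the genes of this list have in the lung levels of Cdh4 and Cdh15 was not tested.

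Cdh1, E-cadherin, the cadherin of epithelial junctions (chromosome 8, 107329983 to 107396878), had another order. It was at 64 and 35 in lung, 2732, 2684 and 2450 in intestine, and 303, 252 and 481 in bladder. No library of one tissue reached the range of another. The log2 difference was 2.97 (SE 0.27) for intestine minus bladder, -2.79 (SE 0.30) for lung minus bladder and -5.76 (SE 0.30) for lung minus intestine, with limma adjusted p of 1.61e-05, 8.04e-05 and 1.02e-06. The 12 general epithelium genes, Cdh1 among them, had the same order, with sums of 784 to 1245 in lung, 19713 to 20924 in intestine and 4676 to 7531 in bladder. Of these 12, 11 were higher and 0 lower in intestine than in bladder, 11 lower and 1 higher in lung than in bladder, and 12 lower in lung than in intestine. Intestinal epithelium genes summed to 421 to 707 in lung, 15268 to 16677 in intestine and 823 to 903 in bladder. Cdx1 and Cdx2, which define intestinal epithelium, were at 0 in every lung and bladder library. The 10 urothelial genes summed to 262 to 522 in lung, 859 to 957 in intestine and 8275 to 11142 in bladder. What part these epithelial genes have in the Cdh1 level was not tested.

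Cdh2, N-cadherin, the usual classical cadherin of heart muscle, neurons and mesenchyme, was at 117 and 92 in lung, 75, 131 and 144 in intestine, and 91, 131 and 194 in bladder. The tissues overlapped and no pair passed the test (limma adjusted p = 0.593 for intestine minus bladder, 0.509 for lung minus bladder and 0.839 for lung minus intestine). Cdh1 and Cdh3 lie 46.1 kb apart on chromosome 8 with 1 other gene of the table between them. Cdh1 was lower in lung than in bladder, while Cdh3 was higher in lung than in bladder.

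Type II cadherins bind a different partner range through a larger hydrophobic interface. The table held 11, of which 8 were tested and 7 passed the F test. Cdh6, K-cadherin, known from the developing kidney (chromosome 15, 13028787 to 13173761), was at 1278 and 821 in lung, 1405, 1229 and 1108 in intestine, and 55, 33 and 49 in bladder. Lung and intestine overlapped, and both stood far above bladder. Cdh6 was higher than in bladder by 4.77 (SE 0.23) in intestine and 4.49 (SE 0.25) in lung on the log2 scale, with limma adjusted p of 5.47e-07 and 1.97e-06. Lung minus intestine was -0.28 (SE 0.25, limma adjusted p = 0.419).

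Cdh22, a cadherin first found in pituitary and brain (chromosome 2, 164953427 to 165076773), was likewise lowest in bladder, at a lower level overall. It was at 74 and 150 in lung, 97, 79 and 66 in intestine, and 1, 0 and 0 in bladder. Lung thus held 263 reads and intestine 265, against 1 read in all of bladder. The depth-adjusted ratio of reads was 277 for lung over bladder (95% counting interval 49.3 to 10990) and 202 for intestine over bladder (35.9 to 8001). The wide intervals come from that single bladder read, and they cover counting error only. Vascular smooth muscle and pericyte genes were lowest in bladder too, with sums of 27989 to 31932 in lung, 30161 to 31646 in intestine and 13656 to 14259 in bladder. Of these 11 genes, 8 were higher than in bladder in each of the other tissues, with 0 lower in lung and 1 lower in intestine. Of the 10 visceral smooth muscle genes 6 were higher than in bladder in each of the other tissues, with 0 lower in lung and 2 lower in intestine (10 higher in each with the deposited scaling undone). Genes of interstitial cells of Cajal summed to 2185 to 3968 in lung, 3806 to 4709 in intestine and 1064 to 1213 in bladder, with 3 of 4 higher in lung and in intestine than in bladder. What part these 3 lists have in the levels of Cdh3, Cdh6 and Cdh22, and of Pcdh1 and Pcdh17 described below, was not tested.

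The promoters of Cdh6 and Cdh22 are shown because both genes were low in bladder and well read in the other organs. The sequences are RefSeq's on build GRCm38.p6, from 250 bases before to 50 bases after the start, on the gene's strand, at chr15:13173626-13173925 (minus) and chr2:165234688-165234987 (minus). Capitals mark matches on either strand to the E-box of SNAIL and ZEB factors CAGGTG, the GC box GGGCGG, or the RBPJ core TGGGAA.
Cdh6: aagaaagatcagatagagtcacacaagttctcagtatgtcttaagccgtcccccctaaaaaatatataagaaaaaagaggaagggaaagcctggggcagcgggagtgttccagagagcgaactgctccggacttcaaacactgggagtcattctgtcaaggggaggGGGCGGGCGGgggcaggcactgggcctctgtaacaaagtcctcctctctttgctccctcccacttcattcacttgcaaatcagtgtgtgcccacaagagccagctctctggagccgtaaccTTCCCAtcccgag
Cdh22: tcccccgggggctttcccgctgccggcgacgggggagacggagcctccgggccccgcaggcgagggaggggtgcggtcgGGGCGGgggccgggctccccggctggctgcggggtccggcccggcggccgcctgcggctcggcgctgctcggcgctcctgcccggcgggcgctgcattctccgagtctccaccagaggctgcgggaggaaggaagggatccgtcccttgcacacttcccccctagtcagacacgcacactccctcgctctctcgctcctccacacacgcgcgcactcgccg
The Cdh6 window held 2 overlapping GC boxes and 1 RBPJ core, and 8 CpG dinucleotides, a number that 48.6% of promoters reach. The Cdh22 window held 1 GC box and 38 CpG, a number that 4.95% of promoters reach. Among 32851 promoters of the same length, 20.2% held the E-box, 35.7% the GC box and 25.6% the RBPJ core, with a median of 7 CpG. The pair shared a GC box only, which is common, and a match is letters in a window, not a bound site.

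Cdh11, OB-cadherin of mesenchyme and fibroblasts (chromosome 8, 103358727 to 103512274), was at 2413 and 2427 in lung, 1435, 1939 and 1820 in intestine, and 3455, 3522 and 3111 in bladder. The 3 tissues did not overlap. Its log2 difference was -0.97 (SE 0.11) for intestine minus bladder, -0.47 (SE 0.12) for lung minus bladder and 0.49 (SE 0.12) for lung minus intestine, with limma adjusted p of 6.41e-05, 0.0118 and 0.00982. The small lung minus bladder difference turned to 0.04 (limma adjusted p = 0.823) once the deposited scaling was undone, and its limma adjusted p was 0.281 after quantile normalization and 0.0504 without the intensity trend. The span of Cdh11 also holds the gene Gm45257, but each of the 8904 exon bases of Cdh11 was shared with no other annotated gene. Fibroblast genes were lower in both other organs than in bladder, 12 of 12 in each pair. With the deposited scaling undone these counts were 8 for intestine and 10 for lung, and after quantile normalization 5 for intestine and 11 for lung. Between the other organs 6 of 12 were lower in lung than in intestine, where Cdh11 was higher. Their part in the Cdh11 level was not tested. Cdh9, known from hippocampal synapses, was at 0 and 0 in lung, 0, 8 and 7 in intestine, and 33, 24 and 19 in bladder. Its lung level was at least 10.0-fold lower than in bladder, with the floor at 3 reads per lung library. It was also lower in intestine than in bladder (-2.63, SE 0.79, limma adjusted p = 0.0198), a call lost without bladder library 1 (adjusted p = 0.0622 by limma) or 2 (0.0508). Cdh9 met the filter for testing only through its bladder libraries, so being tested and being high in bladder are not independent. Lung minus intestine was -2.06 (SE 0.89, limma adjusted p = 0.0944) for Cdh9, and -3.09 (adjusted p = 0.00156 by limma) without intestine library 1, which was at 0.

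Cdh19, a cadherin of neural crest derivatives and Schwann cell precursors (chromosome 1, 110816056 to 110905314), was at 0 and 1 in lung, 112, 108 and 138 in intestine, and 6, 4 and 13 in bladder. Each intestine library was above each bladder library, and bladder above lung. On the log2 scale it differed by 3.92 (SE 0.49) for intestine minus bladder and -2.48 (SE 0.55) for lung minus bladder, with limma adjusted p of 1.30e-04 and 0.00559. Intestine held 390 reads and lung 1 read, a depth-adjusted ratio of 282 (95% counting interval 50.3 to 11158). Glia genes summed to 1256 to 1274 in lung, 3563 to 4190 in intestine and 1875 to 2044 in bladder. Sox10, which defines peripheral glia, was at 0 in both lung libraries, at 190, 200 and 196 in intestine and at 18, 13 and 16 in bladder, the order of Cdh19. Of the 10 glia genes 9 were higher and 0 lower in intestine than in bladder, and 9 were lower and 0 higher in lung than in intestine. For lung minus bladder 2 of the glia genes were higher and 5 lower. Their part in the Cdh19 level was not tested. Cdh10, a brain cadherin, was at 1 and 2 in lung, 42, 47 and 65 in intestine, and 10, 4 and 12 in bladder. Enteric neuron genes summed to 865 to 1469 in lung, 5743 to 6125 in intestine and 879 to 1058 in bladder, and their part in the Cdh10 level was not tested. Cdh10, Cdh15, Cdh16, Cdh18, Cdh23, Pcdh8, Pcdh10 and Pcdh20 had means under 100 in every tissue and were singled out after their values were seen. Cdh18 was lower in intestine than in bladder, at 6, 10 and 1 against 27, 16 and 32, and was at 23 and 16 in lung. Cdh24 passed in no pair, and Cdh7, Cdh8 and Cdh12 were too low to test, with no library above 12.

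Cdh13, T-cadherin, is held in the membrane by a lipid anchor, has no cytoplasmic tail, and binds adiponectin (chromosome 8, 119010472 to 120051660). It was at 4215 and 3691 in lung, 1342, 1235 and 1134 in intestine, and 2249, 2130 and 1900 in bladder. Lung lay above bladder and bladder above intestine without overlap. Differences on the log2 scale were 0.92 (SE 0.10) for lung minus bladder, 1.68 (SE 0.10) for lung minus intestine and -0.76 (SE 0.09) for intestine minus bladder, with limma adjusted p of 1.18e-04, 2.50e-06 and 1.17e-04. Lung epithelium genes summed to 4313 to 4438 in lung, 730 to 844 in intestine and 395 to 474 in bladder, with 10 of 12 higher and 1 lower in lung than in each other organ. Their part in the lung levels of Cdh4, Cdh13 and Pcdh7 was not tested.

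Cdh17, LI-cadherin, a junction protein of intestinal epithelium with 7 cadherin repeats (chromosome 4, 11758147 to 11817895), was at 2 and 3 in lung, 1773, 2036 and 1787 in intestine, and 0, 11 and 9 in bladder. The difference was 8.56 (SE 0.81) for intestine minus bladder and -9.07 (SE 0.91) for lung minus intestine on the log2(value + 1) scale, with limma adjusted p of 2.41e-05 and 5.23e-05. Lung and bladder did not differ by the test (-0.51, SE 0.91, limma adjusted p = 0.698), although they did without bladder library 1, which was at 0 (-1.66, limma adjusted p = 0.00399). Intestinal epithelium genes were likewise highest in intestine, 11 of 12 higher in intestine than in bladder and 11 of 12 lower in lung than in intestine, and their part in the Cdh17 level was not tested. Cdh16, the kidney relative of Cdh17, was at 32 and 12 in lung, 2, 2 and 10 in intestine and 0 in all 3 bladder libraries. Its lung level was at least 6.08-fold higher than in bladder. Cdh16 met the filter for testing only through its lung libraries, so being tested and being high in lung are not independent. Cdh26, an epithelial cadherin, was at 11 and 10 in lung, 122, 122 and 84 in intestine, and 43, 28 and 29 in bladder, an order shared with Cdh1. It differed by 1.69 (SE 0.32) for intestine minus bladder, -1.55 (SE 0.36) for lung minus bladder and -3.24 (SE 0.36) for lung minus intestine, with limma adjusted p of 0.00171, 0.00707 and 9.78e-05. Cdh23, which forms the tip links of hair cells together with Pcdh15, was at 10 and 12 in lung, 26, 20 and 29 in intestine, and 36, 34 and 47 in bladder. Pcdh15 was at 0 to 22 over the 8 libraries and passed in no pair.

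Delta protocadherins, which have conserved motifs in their tails, were 9 in number, and all 9 passed the F test. For intestine minus bladder 2 were higher and 4 lower, and both for lung minus bladder and for lung minus intestine 3 were higher and 5 lower. Pcdh18 (chromosome 3, 49697745 to 49711774) was at 713 and 593 in lung, 1602, 1526 and 1226 in intestine, and 4371, 5107 and 4513 in bladder. The 3 tissues did not overlap. The log2 difference was -2.84 (SE 0.13) for lung minus bladder, -1.69 (SE 0.12) for intestine minus bladder and -1.15 (SE 0.13) for lung minus intestine, with limma adjusted p of 7.19e-07, 3.72e-06 and 1.25e-04. Pcdh7 (chromosome 5, 57875309 to 58290572) was highest in lung instead, at 3219 and 2113 in lung, 623, 712 and 758 in intestine, and 1116, 1069 and 1065 in bladder. Lung exceeded bladder by 1.27 (SE 0.16) and intestine by 1.91 (SE 0.16) on the log2 scale, with limma adjusted p of 2.47e-04 and 1.79e-05. Intestine minus bladder was -0.64 (SE 0.14, limma adjusted p = 0.00471) for Pcdh7, and -0.24 (adjusted p = 0.232 by limma) with the deposited scaling undone. The long span of Pcdh7 holds 14 other genes of the table, whose reads cannot be told apart from those of Pcdh7 where exons overlap.

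The promoters of Pcdh18 and Pcdh7 are shown as the pair of well-read delta protocadherins with opposite extremes, bladder for Pcdh18 and lung for Pcdh7. They lie at chr3:49757267-49757566 (minus) and chr5:57717831-57718130 (plus) on GRCm38.p6, in the same window and with the same capitals as above.
Pcdh18: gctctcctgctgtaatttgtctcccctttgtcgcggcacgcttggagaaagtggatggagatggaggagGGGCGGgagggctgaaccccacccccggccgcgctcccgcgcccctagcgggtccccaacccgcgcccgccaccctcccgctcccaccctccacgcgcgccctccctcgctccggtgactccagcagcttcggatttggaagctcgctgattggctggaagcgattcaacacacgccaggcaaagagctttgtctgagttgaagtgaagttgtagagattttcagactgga
Pcdh7: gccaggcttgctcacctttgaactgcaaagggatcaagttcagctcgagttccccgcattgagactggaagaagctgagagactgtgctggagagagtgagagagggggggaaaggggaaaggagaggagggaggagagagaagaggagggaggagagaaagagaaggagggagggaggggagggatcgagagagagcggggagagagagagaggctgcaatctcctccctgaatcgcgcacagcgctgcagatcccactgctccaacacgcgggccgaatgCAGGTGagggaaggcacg
Pcdh18 held 1 GC box and 23 CpG, a number that 21.5% of promoters reach. Pcdh7 held 1 E-box, after its start, and 11 CpG, which 41.4% reach. No motif of the 3 was shared by the pair in these windows.

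Pcdh1, an airway epithelial protocadherin in humans (chromosome 18, 38318967 to 38345106), was at 931 and 730 in lung, 1467, 1231 and 1270 in intestine, and 93, 80 and 129 in bladder. All 5 libraries of lung and intestine were far above bladder, as for Cdh6. On the log2 scale intestine minus bladder was 3.73 (SE 0.18) and lung minus bladder 3.05 (SE 0.21), with limma adjusted p of 6.43e-07 and 6.08e-06. Lung minus intestine was -0.68 (SE 0.21, limma adjusted p = 0.0274), a call that was lost without lung library 2 (adjusted p = 0.161 by limma) and without any single intestine library (0.0574 to 0.0946), and with the deposited scaling undone (-0.56, limma adjusted p = 0.112). Pcdh17 (chromosome 14, 84681003 to 84776442) was at 335 and 276 in lung, 173, 128 and 118 in intestine, and 72, 54 and 52 in bladder, with no overlap. It was higher than in bladder by 2.35 (SE 0.26) in lung and 1.22 (SE 0.23) in intestine on the log2 scale, and higher in lung than in intestine by 1.14 (SE 0.26), with limma adjusted p of 1.05e-04, 0.00187 and 0.00745. Its 3 tissues were in the same order as for Cdh3. After quantile normalization the Pcdh17 difference for intestine minus bladder was 0.45 (limma adjusted p = 0.146).

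Pcdh19, an X-linked gene mutated in a human epilepsy (chromosome X, 132483609 to 132589736), was at 46 and 108 in lung, 385, 423 and 406 in intestine, and 542, 487 and 522 in bladder. Pcdh19 differed on the log2 scale by -2.85 (SE 0.29) for lung minus bladder and -2.50 (SE 0.29) for lung minus intestine, with limma adjusted p of 6.62e-05 and 1.45e-04. For intestine minus bladder it was -0.35 (SE 0.26, limma adjusted p = 0.291), and that pair passed when lung library 1 or 2, which differed for Pcdh19, was left out (adjusted p = 0.0153 or 0.0192 by limma). Pcdh9 (chromosome 14, 93250846 to 94128115) was at 171 and 123 in lung, 106, 201 and 205 in intestine, and 377, 468 and 432 in bladder. Bladder lay above both other organs, which overlapped. The log2 difference from bladder was -1.54 (SE 0.30) in lung and -1.37 (SE 0.27) in intestine, with limma adjusted p of 0.00281 and 0.002. The fibroblast list, lower in lung and in intestine than in bladder for 12 of 12 genes (10 in lung and 8 in intestine with the deposited scaling undone), moved alongside Cdh9, Pcdh18, Pcdh9 and Pcdhgc3, and its part in their levels was not tested. Pcdh11x, an X-linked brain protocadherin (chromosome X, 119199956 to 119820316), was at 194 and 111 in lung, 1, 6 and 11 in intestine, and 171, 237 and 152 in bladder. Lung and bladder overlapped, and intestine stood apart from both. Pcdh11x differed on the log2 scale by -5.06 (SE 0.60) for intestine minus bladder and 4.74 (SE 0.67) for lung minus intestine, with limma adjusted p of 9.57e-05 and 4.74e-04. Pcdh8 and Pcdh10, both known from brain, passed as lower in lung than in either other organ. Pcdh8 was at 4 and 0 in lung, 74, 125 and 40 in intestine, and 46, 66 and 78 in bladder. Pcdh10 was at 3 and 0 in lung, 43, 36 and 35 in intestine, and 10, 29 and 25 in bladder. Mesothelium genes summed to 566 to 1098 in lung, 3626 to 3839 in intestine and 3559 to 5994 in bladder. Of these 8 genes, 7 were lower and 0 higher in lung than in bladder, and 2 lower and 0 higher in lung than in intestine. Whether they have a part in the levels of Pcdh19, Pcdh8 and Pcdh10 was not tested.

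Pcdh12, a protocadherin of endothelial cells (chromosome 18, 38400142 to 38417455), was at 38 and 42 in lung, 106, 193 and 186 in intestine, and 27, 20 and 41 in bladder. Pcdh12 differed on the log2 scale by 2.43 (SE 0.36) for intestine minus bladder and -1.94 (SE 0.40) for lung minus intestine, with limma adjusted p of 3.58e-04 and 0.00402. Lung minus bladder was 0.49 (SE 0.40, limma adjusted p = 0.362). The 14 endothelial genes summed to 11336 to 12239 in lung, 20238 to 22686 in intestine and 7262 to 10162 in bladder. Of these, 13 were higher and 1 lower in intestine than in bladder, and 9 were lower and 0 higher in lung than in intestine. For lung minus bladder, where Pcdh12 did not pass, 8 of the endothelial genes were higher and 4 lower. Whether they have a part in the Pcdh12 level was not tested. Pcdh12 lies 55.0 kb from Pcdh1 on chromosome 18. Lung and intestine were both higher than bladder in Pcdh1, whereas in Pcdh12 lung did not pass against bladder. Pcdh20 was at 4 and 4 in lung, 61, 87 and 25 in intestine, and 6, 4 and 9 in bladder. The enteric neuron and intestinal epithelium lists were highest in intestine as well, and their part in the Pcdh20 level was not tested.

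The 49 clustered protocadherins, all on chromosome 18, summed to 4193 to 5640 in lung, 3345 to 4053 in intestine and 5580 to 5724 in bladder. Of the 43 tested, 12 were lower and 0 higher in intestine than in bladder, 2 lower and 0 higher in lung than in bladder, and 3 higher and 0 lower in lung than in intestine. The median log2 difference was -0.42 for intestine minus bladder, against 0.06 over all genes tested. It was -0.18 for lung minus bladder, against 0 over all genes, and 0.40 for lung minus intestine, against -0.04. Without any 1 of the 3 bladder libraries, or without intestine library 1, the 12 lower in intestine than in bladder became 7, with 1 higher without bladder library 2. Without lung library 1 the counts were 0 higher and 5 lower for lung minus bladder, and 2 higher and 2 lower for lung minus intestine. Without lung library 2 they were 2 higher and 1 lower for lung minus bladder, and 5 higher and 0 lower for lung minus intestine. The counts also depended on scaling. With the deposited scaling undone, 2 were higher and 4 lower for intestine minus bladder. For lung minus bladder 4 were then higher and 0 lower, so the calls changed direction. The clustered median was then -0.09 for intestine minus bladder, against 0.45 over all genes, and 0.33 for lung minus bladder, against 0.48. In both pairs it thus stayed below the median of all genes, as in the main fit. Quantile normalization gave 0 higher and 32 lower in intestine than in bladder, 0 higher and 1 lower in lung than in bladder, and 20 higher and 0 lower in lung than in intestine. The gamma genes, and likewise the alpha genes, share 3′ constant exons, so the counting could split or drop reads between them, and single-gene values of both clusters are uncertain. The beta genes, which have no constant exons, gave 4 of 20 tested lower in intestine than in bladder and 2 of 20 higher in lung than in intestine. In the gamma cluster, 8 of 21 were lower in intestine than in bladder, 2 lower in lung than in bladder, and 1 higher in lung than in intestine. Of the 7 alpha genes 2 were tested, and 0 of the 2 passed in any pair by limma.

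Pcdhgc3, a C-type gamma gene expressed outside the nervous system too (chromosome 18, 37939417 to 37974926), was at 676 and 634 in lung, 465, 549 and 605 in intestine, and 960, 994 and 953 in bladder. Bladder lay above both other organs, and lung above intestine, without overlap. Lung minus intestine was 0.29 (SE 0.12, limma adjusted p = 0.0911), and passed without intestine library 3 (0.37, limma adjusted p = 0.0441) and with the deposited scaling undone (0.40, limma adjusted p = 0.046). The log2 difference was -0.85 (SE 0.11) for intestine minus bladder and -0.56 (SE 0.12) for lung minus bladder, with limma adjusted p of 1.54e-04 and 0.005. The lung minus bladder difference was -0.05 (limma adjusted p = 0.773) with the deposited scaling undone. Pcdhgc5, another C-type gene (chromosome 18, 37952566 to 37974926), was at 160 and 178 in lung, 1, 24 and 26 in intestine, and 119, 116 and 169 in bladder. The difference was -3.60 (SE 0.86) for intestine minus bladder and 3.94 (SE 0.96) for lung minus intestine on the log2(value + 1) scale, with limma adjusted p of 0.00632 and 0.00992. Pcdhgb6 was at 355 and 191 in lung, 118, 289 and 164 in intestine, and 375, 364 and 425 in bladder, and was lower in intestine than in bladder (-1.12, SE 0.33, limma adjusted p = 0.0173). That call was lost without bladder library 3 (adjusted p = 0.0593 by limma), intestine library 1 (0.0704) or intestine library 3 (0.065), and with the deposited scaling undone (-0.73, limma adjusted p = 0.119).

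Among the beta genes, Pcdhb17 was at 358 and 331 in lung, 162, 206 and 232 in intestine, and 505, 442 and 465 in bladder. The 3 organs did not overlap. Pcdhb17 differed on the log2 scale by -1.24 (SE 0.16) for intestine minus bladder and 0.80 (SE 0.17) for lung minus intestine, with limma adjusted p of 1.36e-04 and 0.00576. Lung minus bladder was -0.45 (limma adjusted p = 0.0678), and passed without intestine library 1 (adjusted p = 0.0348 by limma). Pcdhb19 was at 155 and 148 in lung, 66, 119 and 101 in intestine, and 145, 230 and 174 in bladder, and its intestine minus bladder difference was -0.95 (SE 0.27, limma adjusted p = 0.0146). Without bladder library 2 or intestine library 1 that p was 0.0615 or 0.0512 by limma, and with the deposited scaling undone the difference was -0.56 (limma adjusted p = 0.125). Lung minus intestine passed for Pcdhb19 after quantile normalization (1.35, limma adjusted p = 0.00517). Pcdhb20 was at 421 and 209 in lung, 75, 130 and 201 in intestine, and 289, 275 and 204 in bladder. Its calls, -1.01 (SE 0.37, limma adjusted p = 0.0468) for intestine minus bladder and 1.24 (SE 0.42, limma adjusted p = 0.0416) for lung minus intestine, were each lost without any 1 of the 3 bladder libraries and without intestine library 1 or 2. The limma adjusted p without 1 library reached 0.167 for intestine minus bladder (without intestine library 1) and 0.239 for lung minus intestine (without lung library 1). With the deposited scaling undone intestine minus bladder was -0.62 for Pcdhb20 (limma adjusted p = 0.187).

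Levels of different members were compared per kb of exon shared with no other gene. In lung the highest were Cdh4 at 407, Pcdhgc3 at 360, Cdh13 at 352, Pcdh7 at 319 and Cdh11 at 272 normalized reads per kb. Their library ranges overlapped from each to the next, and Cdh11 did not overlap Pcdh18, the sixth, at 122. In intestine the order was Cdh1 at 573, Cdh17 at 417, Pcdhgc3 at 296, Pcdh18 at 270, Cdh11 at 194, Pcdh1 at 150, Cdh6 at 138 and Cdh13 at 110. There Pcdhgc3 overlapped Pcdh18, Cdh11 overlapped Pcdh1, and Pcdh1 overlapped Cdh6. In bladder it was Pcdh18 at 869, Pcdhgc3 at 532, Cdh11 at 378, Cdh13 at 186, Pcdhgb6 at 151 and Pcdh7 at 129, with no overlap among the first 6. The place of Pcdhgc3 rests on its length: 1821 of its 5499 exon bases belong to it alone, and reads counted in the rest would raise its level per kb. The same holds for Pcdhgb6, with 2565 of 4684 exon bases its own, and for Pcdh7, with 8369 of 10604.

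**Figure D4:**
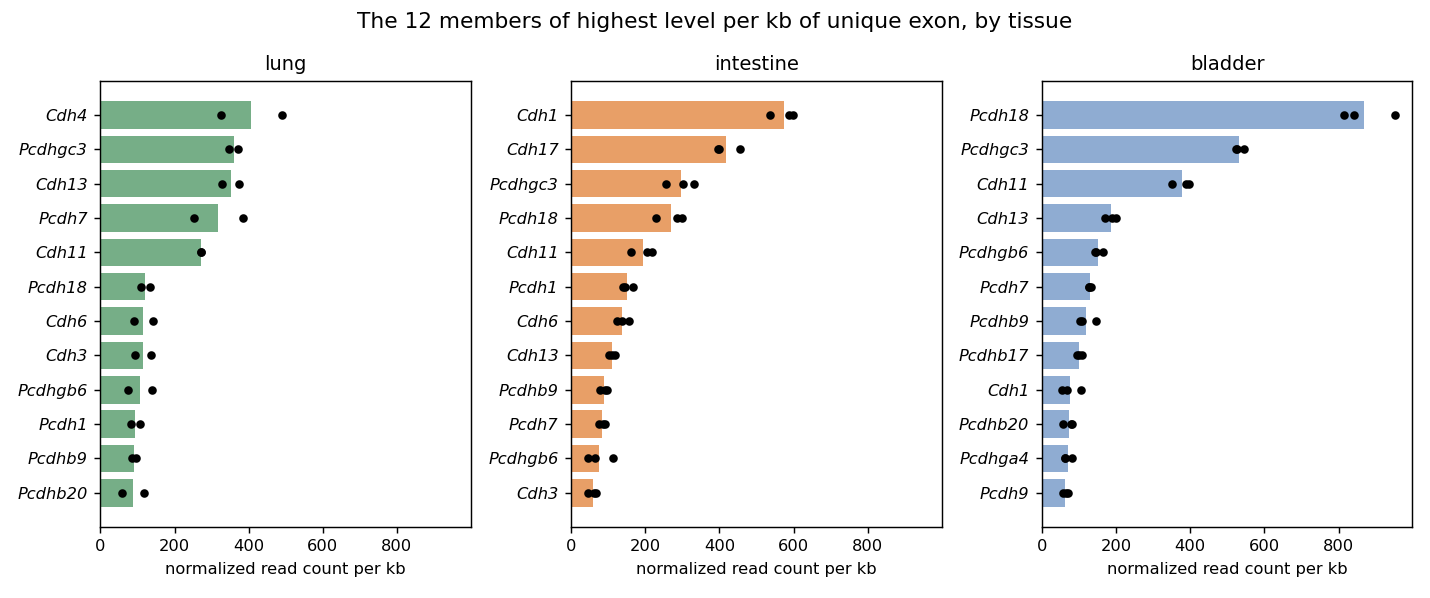
Normalized read count per kb of exon shared with no other gene, for the 12 members of highest mean in each tissue; bars are means and points are libraries. Cdh4 leads in lung, Cdh1 and Cdh17 in intestine, and Pcdh18 in bladder, while Pcdhgc3, Cdh11, Cdh13 and Pcdh18 are among the first 8 in all 3.

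Genes of catenins and of junction plaque proteins, and the other lists below, are read against the shares of all genes given above. Those shares were 28.7% higher and 23.3% lower in intestine than in bladder. They were 19.2% higher and 21.8% lower in lung than in bladder, and 15.9% higher and 23.6% lower in lung than in intestine. Of 16 catenin and plaque genes, 12 were higher and 0 lower in intestine than in bladder, 6 higher and 4 lower in lung than in bladder, and 0 higher and 7 lower in lung than in intestine. Ctnna1, alpha-catenin, averaged 4216 in lung, 4247 in intestine and 4232 in bladder and passed in no pair. Ctnnb1, beta-catenin, averaged 2926 in lung, 3285 in intestine and 3530 in bladder, and differed by -0.28 on the log2 scale for lung minus bladder (limma adjusted p = 0.0215). Ctnna3, the alpha-T-catenin of heart muscle, averaged 215 in lung, 352 in intestine and 14.7 in bladder, with log2 differences from bladder of 3.79 in lung and 4.69 in intestine (limma adjusted p = 0.00107 and 9.05e-05). Pkp4, which binds classical cadherins, averaged 524 in lung, 531 in intestine and 118 in bladder. Vcl, vinculin, averaged 2913 in lung, 2711 in intestine and 1258 in bladder. Ctnna3, Pkp4 and Vcl were thus, like Cdh6 and Cdh22, higher in lung and in intestine than in bladder. Ctnna3 and Vcl were not among the 3 list genes of smallest p in either pair. Afdn, which was among them for lung minus bladder, went the other way (-0.99, limma adjusted p = 7.18e-05).

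Of other cadherin relatives, all 3 desmosomal cadherins in the table, Dsc2, Dsc3 and Dsg2, passed as higher in intestine than in bladder, and all 3 as lower in lung than in intestine, as Cdh1 did. Of 8 tested calsyntenin, CDHR and Ret genes, 5 were higher and 1 lower in intestine than in bladder, 2 higher and 2 lower in lung than in bladder, and 1 higher and 5 lower in lung than in intestine. Cdhr5, a brush border cadherin, averaged 1159 in intestine and was listed at 0 in every lung and bladder library. The FAT, Dachsous and Celsr list held 10 genes, giant cadherins of planar polarity and Fjx1, which is not a cadherin. Of these 10, 4 were higher and 2 lower in intestine than in bladder, and 4 higher and 2 lower in lung than in bladder. In lung against intestine 1 was higher and 2 lower. Quantile normalization turned the intestine minus bladder count to 2 higher and 3 lower, and the lung minus intestine count to 3 higher and 1 lower. Dchs1 averaged 449 in lung, 586 in intestine and 1000 in bladder, and Fat4, which binds it, averaged 330.5 in lung, 212 in intestine and 120 in bladder. Of 4 nectins, adhesion proteins that help build adherens junctions, 1 was higher and 3 lower in intestine than in bladder, 0 and 2 in lung against bladder, and 0 and 1 in lung against intestine. With the deposited scaling undone the nectin counts were 1 higher and 0 lower for intestine minus bladder, and 1 higher and 1 lower for lung minus bladder.

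Regulators and processing enzymes of cadherins were read too. Of 8 tested repressors of E-cadherin transcription and their relatives, 0 were higher and 6 lower in intestine than in bladder, 1 higher and 2 lower in lung than in bladder, and 3 higher and 0 lower in lung than in intestine. For lung minus bladder that balance turned to 6 higher and 2 lower with the deposited scaling undone. Twist1 averaged 104.5 in lung, 66.0 in intestine and 671 in bladder, and Twist2 averaged 76.5 in lung, 69.7 in intestine and 549 in bladder. Snai1 averaged 927 in lung, 248 in intestine and 580 in bladder, and was lower in intestine than in bladder (-1.23, limma adjusted p = 0.00291). Of 13 chromatin regulators of the protocadherin clusters, 4 were higher and 0 lower in intestine than in bladder, 1 higher and 1 lower in lung than in bladder, and 0 higher and 3 lower in lung than in intestine. With the deposited scaling undone 11 were higher and 0 lower in intestine than in bladder, and 7 higher and 0 lower in lung than in bladder. That setting also raised the median over all genes, to 0.45 and 0.48 in these pairs. Ctcf, which loops clustered promoters to their enhancers in neurons, averaged 1310.5 in lung, 1279 in intestine and 1300 in bladder and passed in no pair. Of 11 WAVE complex genes, whose products bind delta protocadherin tails, 3 were higher and 4 lower in intestine than in bladder, 1 and 5 in lung against bladder, and 0 and 3 in lung against intestine, and with the deposited scaling undone 5 were higher and 0 lower in intestine than in bladder and 4 higher and 0 lower in lung than in bladder. Of 10 genes that process or shed cadherins, 0 were higher and 5 lower in intestine than in bladder, 1 and 6 in lung against bladder, and 0 and 2 in lung against intestine, and undoing the scaling turned the intestine minus bladder count to 3 higher and 1 lower and the lung minus bladder count to 2 higher and 2 lower.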

How the data were processed

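RNA sequencing of 8 libraries of sorted cells was analysed, 2 from lung, 3 from intestine and 3 from bladder. The authors purified RNA and put at most 10 ng into the SMART-Seq v4 kit, which does not mark strand, per the labels' protocols. The build was mm39, and counting and alignment tools listed without order or setting were featureCounts 2.0.4, STAR 2.7.10a, DESeq2 1.36.0, Trimmomatic 0.39 and Picard 3.0.0, per the submitters' processing notes. The deposited values were treated as a score: whole numbers spaced like read counts multiplied by 1 constant per library and rounded. That constant, estimated from the spacing, gave the value of 1 read (0.822 to 1.27) and the reconstructed depths. Because the values are not counts, limma 3.58.1 (R 4.3.3) with an intensity trend was fitted on log2(value + 1) over all 8 libraries with a mean per tissue. Genes at 10 or more in at least 2 libraries were tested (18097), p-values were adjusted over all of them by Benjamini-Hochberg, and 0.05 was the threshold. The pseudocount makes differences of low genes too small. The fit was tested on simulated data.

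The members, role groups, 9 pathway lists and 14 marker lists were chosen with earlier results of these data known. Members described library by library had an F test call and a mean of at least 100 in some tissue, or a fold bound over 10 against a tissue at 0. Folds against a tissue at 0 use the mean floor of 3 reads per library. Floors and counting intervals cover counting error only, since amplified reads are not independent molecules. Coordinates are those of the deposited table. GENCODE M21 supplied exon lengths, for 96.8% of all gene IDs and for each of the 82 members. Promoters came from RefSeq, with entries for 21 of the 82 members. Alternatives varied the pseudocount, filter, scaling, variance model, tissues in the fit and libraries, and added the replicate number.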

Additional observations from a re-analysis of the deposited data

How the results depend on the processing

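Of the counts of members, those for lung minus bladder and for members highest in intestine stayed within 1.5 times their value in every alternative run. Quantile normalization gave 53 calls for intestine minus bladder (11 higher, 42 lower) against 33, 42 for lung minus intestine (30 higher, 12 lower) against 25, 60 by the F test against 36, and 7 members highest in lung against 4. Members highest in bladder numbered 4, and 1 with the deposited scaling undone, 2 with equal totals, 2 without the intensity trend and 2 with the replicate block. Leaving out 1 library at a time gave 27 to 34 calls for intestine minus bladder, 22 to 25 for lung minus bladder, 22 to 24 for lung minus intestine, 29 to 38 by the F test, and 3 to 5 members highest in lung, 6 to 8 in intestine and 1 to 4 in bladder. The log2 difference of Cdh11 for lung minus bladder changed sign when the deposited scaling was undone (0.039). That setting leaves differences in library depth in the values, and the bladder libraries had the fewest reads. With the scaling undone, the median over all genes was 0.45 rather than 0.06 in intestine minus bladder, and 0.48 rather than 0 in lung minus bladder. Same-numbered libraries did not deviate together (correlations of -0.026 to 0.058 in 7 pairs, against -0.072 to 0.072 in 14 other pairs) and not every library correlated best with its own number, so the numbers were taken as names. The replicate block gave 31 calls for intestine minus bladder, 22 for lung minus bladder, 24 for lung minus intestine and 34 by the F test, and 7 members highest in intestine and 4 in lung. The 9 members too low to test, and any difference under the 3-read floor, were not resolved at this depth.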

Other observations

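Libraries of 1 tissue differed by more than 2-fold for some members with a tissue mean of at least 50 and no library of it at 0. There were 7 such members in lung, 11 in intestine and 6 in bladder. In lung the widest was Pcdhga5, at 151 in one library and 34 in the other, a ratio of 4.44. In intestine it was Pcdhb11, whose highest library was at 97 and lowest at 23, a ratio of 4.22, followed by Pcdhgc4 at 84 and 21. In bladder it was Pcdhga9, with a highest library at 81 and a lowest at 25, a ratio of 3.24. Outside the clusters the same spread was seen for Pcdh19 and Cdh22 in lung, Pcdh20 and Pcdh8 in intestine, and Cdh2 in bladder. The 9 members not tested were Cdh7, Cdh8, Cdh12, Pcdha2, Pcdha9, Pcdha10, Pcdha12, Pcdhac1 and Pcdhb2. Of these Cdh8, a brain cadherin, was at 0, 12 and 9 in intestine, at 1, 0 and 0 in bladder, and at 0 in both lung libraries. Pooled, it held 23 reads in intestine and 1 read in bladder, a depth-adjusted ratio of 17.5. The 95% counting interval of 2.84 to 722 leaves out the scatter among libraries, and whether Cdh8 differed was not tested.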
